A study of Mus musculus with 12 samples.

Results

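The fibroblast growth factor (FGF) genes of skin repair were followed in mouse wounds with and without capsaicin (CAP). The 10 genes were chosen by name from the 55487 genes listed for each library, and each had 1 row. They are the ligands Fgf7, Fgf10 and Fgf22, the ligands Fgf1, Fgf2 and Fgf18, the receptors Fgfr1, Fgfr2 and Fgfr3, and the binding protein gene Fgfbp1. RNA was sequenced from wounds of male C57BL/6JNarl mice that were 6 weeks old and for which the labels name no transgene. Each mouse had 2 punch wounds of 6 mm through the full skin of the back, and the wound was collected with the tissue around it. The sham group received 200 µL of Pluronic F127 (P-F127) gel, 25% in saline, once a day on the wound. The CAP group received 10 µM CAP in the same gel. There were 3 libraries from each group at day 3 and 3 at day 6, 12 in all. Whether libraries were made from different mice is not stated, so n is the number of libraries and the p-values measure only the spread between them.

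In skin repair, FGF ligands carry signals between the dermis and the epidermis. Fibroblasts of the wound bed make FGF7 and FGF10, which bind the epithelial isoform of FGFR2 on keratinocytes and are known to drive their growth and migration. FGF22 acts on the same receptor isoform and is known from keratinocytes of the epidermis and hair follicle. FGF1 binds every FGF receptor, FGF2 is best known for acting on fibroblasts and endothelial cells, and FGF18 is known from the hair follicle. FGFR1 is the main receptor of dermal cells, whereas FGFR2 and FGFR3 are prominent in the epidermis. FGFBP1 is a secreted carrier that releases FGFs from heparan sulfate in the matrix. An active receptor signals through the Ras and MAP kinase pathway and induces its own inhibitors, among them Spry and Dusp6, and the transcription factors Etv4 and Etv5.

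The values are TPM, a measure of how much of a library's transcripts a gene accounts for, corrected for transcript length. They hold no read counts, so the depth is unknown and counting error cannot be stated. At 0.3 TPM or above, the libraries held 18533 to 19325 genes. Basal keratinocyte and fibroblast markers were abundant in all 12 libraries, as in skin, with summed levels of 12638 TPM or more and 10557 TPM or more. CAP day 6 replicate 2 stood apart from the rest, since its 10 most abundant genes held 14.1% of the TPM, against 8.27% to 11.3% in the other 11 libraries. Differences are on the scale log2(TPM + 0.1), which understates the change of a low gene. They were tested with limma over all genes whose mean reached 0.3 TPM in each of the groups compared, and "rose" and "fell" are used only for an adjusted p under 0.05. The threshold of the study, an unadjusted p under 0.05 with a difference of at least 2-fold, was counted beside it. A 2-sided exact permutation test of 3 libraries against 3 cannot give a p under 0.1, which was reached by every gene whose groups did not overlap.

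All 10 genes passed the filter in every comparison. None of them had an adjusted p under 0.05 in any of the 5 comparisons made. Only Fgf22 passed the threshold of the study, in the 3 comparisons that involve the CAP wounds of day 6. At day 6 its mean was 7.61 ± 1.86 TPM (SD, n = 3) in the P-F127 wounds and 17.3 ± 5.08 TPM (SD, n = 3) in the CAP wounds. At the same day, Fgfr2 and Fgfr3 were higher and Fgf7 and Fgfr1 lower in every CAP library than in any P-F127 library, though below the 2-fold difference.

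For the genes whose day 6 groups did not overlap, the promoter sequence is shown here where the RefSeq table (build GRCm38.p6) has an entry, from 250 bases before the start site to 50 bases from it. They are given because these genes were apart at the same day in the same libraries. Capitals mark each match to 4 motifs searched on both strands, the AP-1 site TGANTCA, the GC box GGGCGG, the ETS site CCGGAAG and the TATA box TATAAA. A GC box on the other strand reads CCGCCC, and matches that overlap appear as 1 run of capitals.
Fgf22, chr10:79754859-79755158, plus strand: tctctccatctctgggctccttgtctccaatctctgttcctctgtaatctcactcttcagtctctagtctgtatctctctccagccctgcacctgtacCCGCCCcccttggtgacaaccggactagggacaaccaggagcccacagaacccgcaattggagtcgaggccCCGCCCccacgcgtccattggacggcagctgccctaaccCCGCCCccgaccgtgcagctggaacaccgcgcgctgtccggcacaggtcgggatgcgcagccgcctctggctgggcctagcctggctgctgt
Fgfr2, chr7:130266759-130267058, minus strand: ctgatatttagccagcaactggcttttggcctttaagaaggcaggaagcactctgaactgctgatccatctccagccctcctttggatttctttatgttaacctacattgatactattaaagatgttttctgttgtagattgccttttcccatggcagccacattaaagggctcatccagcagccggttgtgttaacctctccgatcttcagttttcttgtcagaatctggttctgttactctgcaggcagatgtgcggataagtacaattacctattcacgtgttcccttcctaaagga
Fgfr3 at its first start, chr5:33721474-33721773, plus strand: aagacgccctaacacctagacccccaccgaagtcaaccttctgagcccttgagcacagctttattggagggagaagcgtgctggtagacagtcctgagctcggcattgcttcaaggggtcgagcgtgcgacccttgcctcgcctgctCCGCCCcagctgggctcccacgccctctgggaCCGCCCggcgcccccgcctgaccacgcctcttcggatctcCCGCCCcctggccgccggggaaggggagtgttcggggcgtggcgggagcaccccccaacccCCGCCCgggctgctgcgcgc
Fgfr3 at its other start, chr5:33722056-33722355, plus strand: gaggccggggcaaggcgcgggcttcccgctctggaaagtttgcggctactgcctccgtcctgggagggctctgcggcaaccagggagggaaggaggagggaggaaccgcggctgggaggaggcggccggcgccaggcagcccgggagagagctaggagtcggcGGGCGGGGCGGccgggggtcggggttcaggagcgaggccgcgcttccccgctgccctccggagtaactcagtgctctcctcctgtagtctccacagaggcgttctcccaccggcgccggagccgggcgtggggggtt
Fgf7, chr2:126034408-126034707, plus strand: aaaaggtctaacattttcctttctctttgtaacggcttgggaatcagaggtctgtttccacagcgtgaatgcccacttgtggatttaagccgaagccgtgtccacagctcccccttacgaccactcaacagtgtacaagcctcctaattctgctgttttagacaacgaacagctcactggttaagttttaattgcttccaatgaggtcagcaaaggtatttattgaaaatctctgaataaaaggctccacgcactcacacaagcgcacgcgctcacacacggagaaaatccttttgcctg

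The GC box was the only one of the 4 motifs found in these 5 windows. It occurred at 3 positions in the Fgf22 window, at 4 and 2 positions in the Fgfr3 windows, and at 0 in those of Fgfr2 and Fgf7. Of 32851 promoters of the same length in the RefSeq table, chromosome 18 left out, 35.7% hold a GC box. An AP-1 site is held by 7.81%, an ETS site by 8.86% and a TATA box by 13.6%. The bases G and C made up 63.7% of the Fgf22 window, 43.7% of that of Fgfr2 and 45.7% of that of Fgf7. They made up 69.7% and 73.0% of the Fgfr3 windows, and the median over the same 32851 promoters was 52.7%. Outside chromosome 18, which was not searched and which holds Fgf1, 8 of the 10 genes had an entry. A match is only a description of the letters.

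The positions of all 10 genes in the tables are those of GENCODE M21 on GRCm38, and all 10 are protein coding. Fgf22 (ENSMUSG00000020327) lies on chromosome 10 from 79755076 to 79758596. It shares 82 bases with the gene Rnf126 on the other strand, which was at 108.1 to 169.3 TPM. Fgfr2 (ENSMUSG00000030849) is listed on chromosome 7 from 130162451 to 133123350, a span that holds or touches 69 other genes, 30 of them protein coding. The start site used for its promoter lies inside that span. Fgf2 overlaps Nudt6 on the other strand over 5199 bases, and Nudt6 was at 3.289 to 5.767 TPM. Fgf1 lies within Arhgap26 and Fgf7 within Fam227b, both on the other strand and both listed at the value that stands for 0 in all 12 libraries. The strand setting of the counting was not stated, so the values of such pairs are uncertain.

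**Figure D1:**
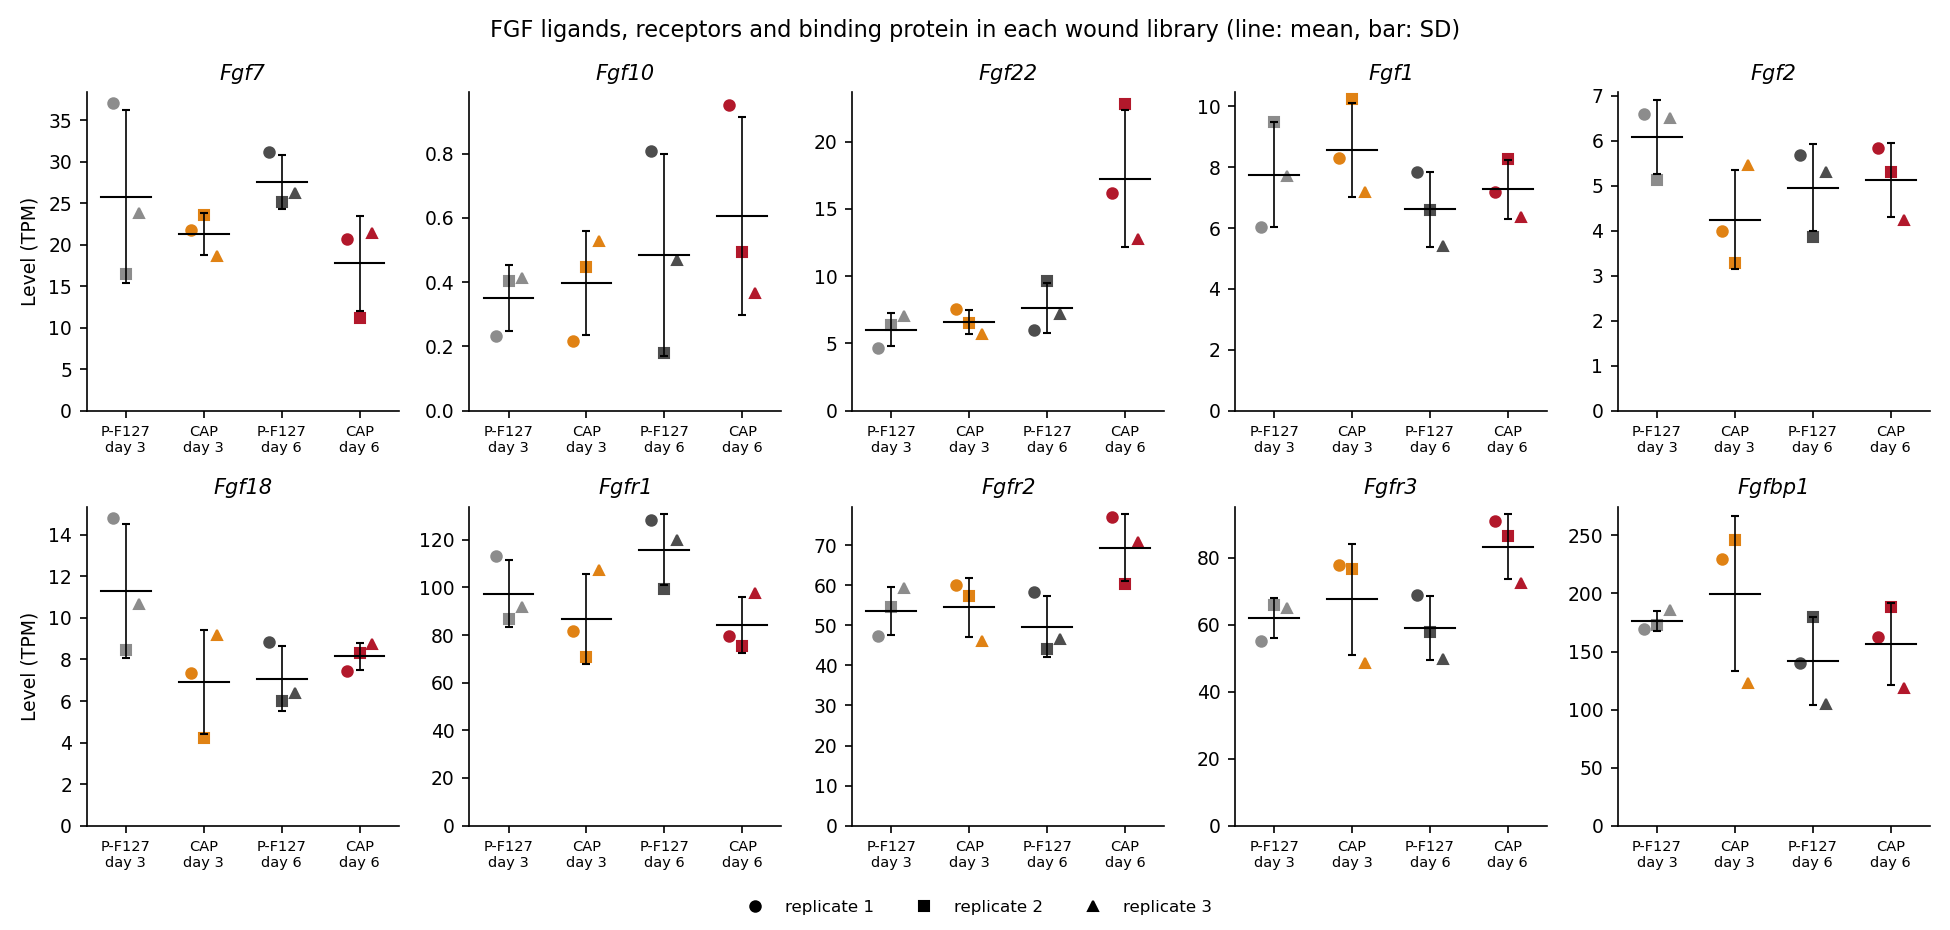
Level of each of the 10 FGF genes in TPM (y axis, from 0) in the 4 groups (x axis), with 1 point per library, the mean as a line and the SD as a bar (n = 3). The CAP day 6 libraries of Fgf22 sit between 12.8 and 22.8 TPM, above the other 9 libraries at 4.65 to 9.64 TPM.

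Across the 12 libraries, Fgfbp1 had the highest mean level at 168.5 TPM and Fgf10 the lowest at 0.459 TPM. The order between them by mean TPM was Fgfr1 (96.0), Fgfr3 (67.9), Fgfr2 (56.9), Fgf7 (23.1), Fgf22 (9.36), Fgf18 (8.37), Fgf1 (7.55) and Fgf2 (5.10). The ranges over the libraries did not overlap between Fgfr2 and Fgf7, nor between Fgf2 and Fgf10. All the other neighbours in that order overlapped, so the receptors and Fgfbp1 stood above all 6 ligands and Fgf10 stood below all other members of the group. Fgf10 reached 0.3 TPM in 9 of the 12 libraries.

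CAP was compared with the gel alone at day 6 to ask what the treatment changed at that day. Fgf22 was at 6.00, 9.64 and 7.18 TPM in the 3 P-F127 libraries and at 16.2, 22.8 and 12.8 TPM in the 3 CAP libraries. All 3 CAP libraries lay above the P-F127 libraries, and the highest was replicate 2, the library that stood apart. The difference was 1.16 on the log2 scale (SE 0.26, 95% interval 0.54 to 1.77), or 2.23-fold, with an adjusted p of 0.205 from limma. Without CAP day 6 replicate 2 it was 0.94, below 2-fold. Without CAP day 6 replicate 3 it was 1.35 with an adjusted p of 0.0371 from limma, where 1430 genes were called in place of 0. Over all alternatives tried, its adjusted p ran from 0.0371 to 0.470. In whole wound tissue, a change in the number of cells of a type and a change in RNA per cell cannot be told apart.

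Of the ligands made by dermal cells, Fgf7 had the opposite direction and Fgf10 overlapped between the groups. Fgf7 was at 31.2, 25.2 and 26.3 TPM with P-F127 and at 20.7, 11.1 and 21.4 TPM with CAP. Every CAP library was lower than every P-F127 library, replicate 2 by most. The log2 difference of Fgf7 was −0.69 (SE 0.26, 95% interval −1.30 to −0.07), with an adjusted p of 0.236 from limma, and it was −0.38 to −0.85 when each library was left out in turn, with −0.38 without CAP day 6 replicate 2. Fgf10, the other dermal ligand of the same receptor, was at 0.807, 0.180 and 0.470 TPM with P-F127 and at 0.953, 0.495 and 0.367 TPM with CAP, with overlapping groups. Summed over Fgf7, Fgf10 and Fgf22, the level was 34.0 to 38.0 TPM in the P-F127 wounds and 34.4 to 37.9 TPM in the CAP wounds, so the total of these ligands overlapped between the groups.

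The receptors divided in the same comparison. Fgfr2, whose epithelial isoform binds the ligands above, was at 58.4, 44.2 and 46.6 TPM with P-F127 and 77.0, 60.4 and 70.8 TPM with CAP. These values are for the whole gene and do not separate that isoform from the others. Fgfr3 was at 68.9, 57.8 and 49.8 TPM against 90.9, 86.5 and 72.5 TPM. Both were higher in all 3 CAP libraries, with a narrow gap for Fgfr2. The log2 difference was 0.48 (SE 0.15, adjusted p = 0.212 by limma) for Fgfr2 and 0.51 (SE 0.15, adjusted p = 0.212) for Fgfr3. Fgfr1, the receptor of dermal cells, was at 128.2, 99.2 and 119.9 TPM with P-F127 and at 79.5, 75.6 and 97.6 TPM with CAP. All CAP libraries were lower, although the highest of them came near the lowest P-F127 library. Its log2 difference was −0.46 (SE 0.14, adjusted p = 0.217 by limma).

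A ratio of receptors within a library does not depend on how the libraries are scaled, and it is given as a description chosen after the values were seen. The ratio of Fgfr2 to Fgfr1 was 0.456, 0.445 and 0.389 in the P-F127 wounds of day 6 and 0.969, 0.799 and 0.726 in the CAP wounds. At day 3 the groups overlapped, at 0.417, 0.629 and 0.645 in the P-F127 wounds and at 0.734, 0.808 and 0.430 in the CAP wounds. The ratio of Fgfr3 to Fgfr1 at day 6 was 0.538, 0.583 and 0.416 in the P-F127 wounds and 1.14, 1.14 and 0.743 in the CAP wounds, so Fgfr3 exceeded Fgfr1 in 2 of the 3 CAP libraries and in none of the P-F127 libraries. The ratio of Fgf22 to Fgf7 was 0.192, 0.383 and 0.273 against 0.782, 2.05 and 0.596. Each ratio sets a gene that was higher without overlap with CAP at day 6 over a gene that was lower without overlap. The day 6 groups could therefore not overlap in these ratios, and their separation is no further result. The summed level of the 3 receptors was 201.2 to 255.5 TPM in the P-F127 wounds and 222.5 to 247.4 TPM in the CAP wounds.

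**Figure D2:**
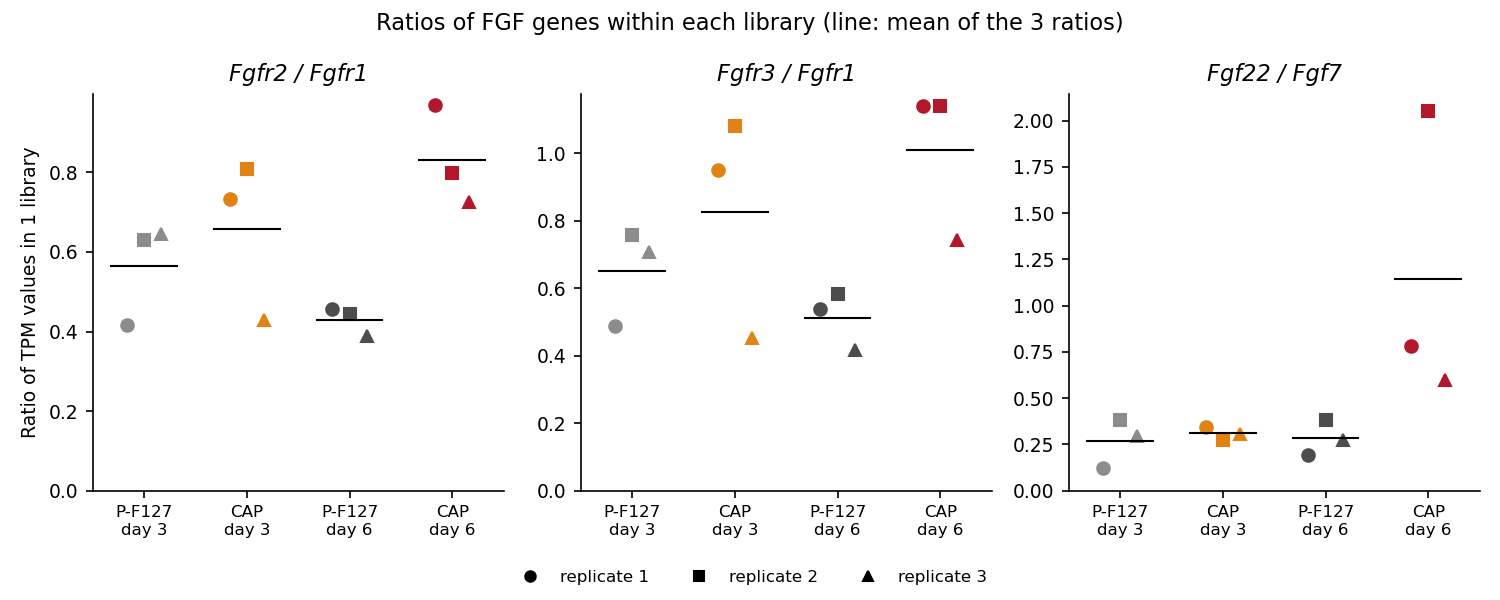
Ratio of the TPM values of paired FGF genes (y axis, no unit) in each library of the 4 groups (x axis), with the mean of the ratios as a line. In all 3 ratios the CAP libraries of day 6 lie above the P-F127 libraries of day 6. This follows from the choice of genes, which were already apart at that day in opposite directions. For Fgfr2 to Fgfr1 the lowest CAP library of day 6 is at 0.726 and the highest P-F127 library of day 6 at 0.456.

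The ligands that act on several receptors and the binding protein overlapped between the groups at day 6. Fgf1 was at 7.85, 6.58 and 5.40 TPM with P-F127 and at 7.17, 8.28 and 6.35 TPM with CAP. Fgf2 was at 5.69, 3.86 and 5.31 TPM against 5.83, 5.30 and 4.23 TPM. Fgf18 was at 8.87, 6.00 and 6.39 TPM against 7.46, 8.29 and 8.73 TPM. Their log2 differences were 0.14 (95% interval −0.31 to 0.59), 0.06 (−0.46 to 0.57) and 0.22 (−0.22 to 0.66). Fgfbp1 was at 140.5, 179.9 and 104.7 TPM with P-F127 and at 162.4, 188.0 and 118.7 TPM with CAP, which overlapped widely.

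Counted over the 10 genes at day 6, the groups did not overlap in 5, 3 of them higher and 2 lower with CAP. Of all 18323 genes tested, 26.0% did not overlap, 8.01% higher and 18.0% lower. An unadjusted p under 0.05 was found for the same 3 higher and 2 lower genes, where 19.2% of all genes had one. The adjusted p was under 0.05 for 0 of the 10 genes and for 0 of all genes, by limma, and the percentage called over all genes was 0. The threshold of the study was passed by 1 of the 10, against 3.80% of all genes. The median log2 difference was 0.19 over the 10 genes and −0.12 over all genes tested. Scaling the libraries by median ratios moved the median of all genes by 0.11, to −0.02. Relative to the deposited median of −0.12, the higher genes stood further from the other genes, and Fgfr1 and Fgf7 nearer to them, than their log2 differences show. At the threshold of the study, 268 genes were higher and 429 lower as deposited, and 388 higher and 303 lower with the scaling.

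**Figure D3:**
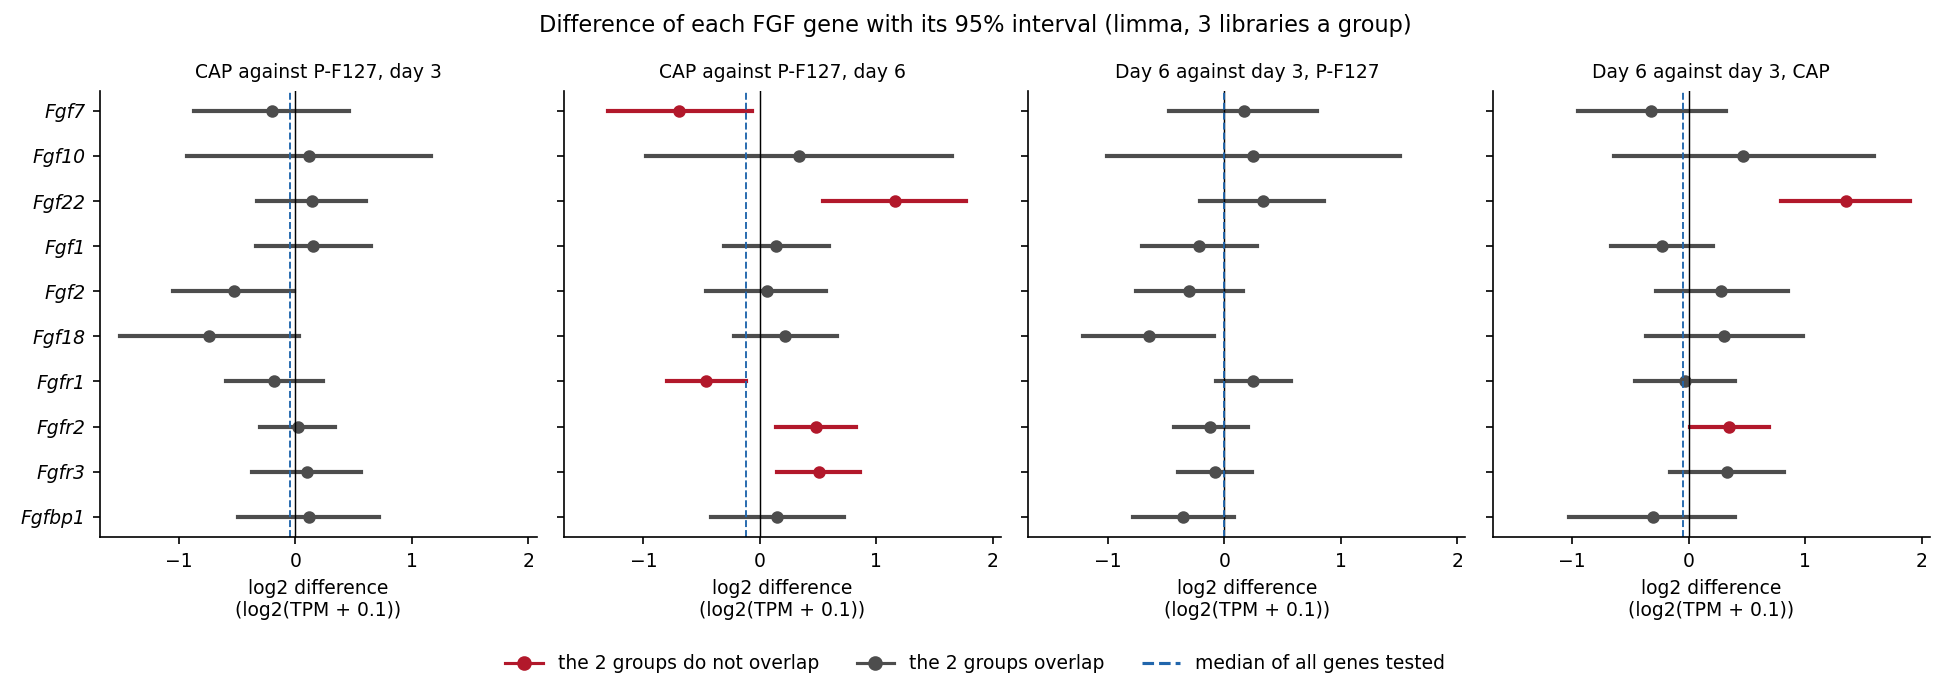
Log2 difference of each of the 10 FGF genes (x axis, on the scale log2(TPM + 0.1)) with its 95% interval from limma in 4 comparisons of 3 libraries against 3, with genes whose groups do not overlap in red and the median of all genes tested as a dashed line. Fgf22 is the farthest to the right in both panels that hold the CAP wounds of day 6 against another group, at 1.16 and 1.35, and no red point appears in the day 3 panel.

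Markers of cell types differed between the same libraries at day 6. Of all 18323 genes tested, 6279 were higher and 12044 lower by value, and 8.01% were higher and 18.0% lower without overlap. All 6 markers of suprabasal keratinocytes, the differentiated layers of the epidermis, were higher without overlap in the CAP wounds, with a median log2 difference of 1.53. Their summed level was 15834 to 19498 TPM in the P-F127 wounds and 38120 to 88364 TPM in the CAP wounds, the highest in CAP day 6 replicate 2. Krt1, Krt10, Lor and Flg, which form the keratin network and the cornified envelope, passed the threshold of the study. Of the 6 markers of basal keratinocytes, 1 was higher without overlap, namely Krt5, and the median difference was 0.17. The groups of Krt14, another basal marker, overlapped. The summed basal level overlapped, at 12638 to 15090 TPM against 13861 to 24793 TPM. Of the 4 markers of wound-edge keratinocytes, 3 were lower and 1 higher by value, all with overlap, with a median of −0.05. Of the 8 hair follicle markers 7 were listed with values, and only 1 passed the filter, at −0.02. The summed level of the 7 was 1.055 to 51 TPM in the P-F127 wounds and 0.8816 to 1.722 TPM in the CAP wounds.

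Of the 7 fibroblast markers, 5 were lower and 2 higher by value in the CAP wounds of day 6, 1 of them lower without overlap, and the median difference was −0.31. Their summed level was 19862 to 26615 TPM in the P-F127 wounds and 16183 to 21877 TPM in the CAP wounds. The marker without overlap was Pdgfra, at 87.9, 76.4 and 80.7 TPM against 49.7, 29.5 and 66.5 TPM. The markers that were higher were Lum, with a mean of 160.0 TPM against 166.6 TPM, and Dpt, with 340.8 TPM against 373.6 TPM. Of the 6 endothelial markers, 4 were lower without overlap, with a median of −1.05 and a summed level of 233.0 to 320.0 TPM against 75.3 to 197.2 TPM. Markers of other cell types also differed by value, where 12044 of all 18323 genes tested were lower by value and 18.0% lower without overlap. All 5 tested of the 6 neutrophil markers were lower, with a median of −1.11 and a summed level of 1728 to 3284 TPM against 277.7 to 2668 TPM. All 7 markers of monocytes and macrophages were lower, with a median of −0.52, and 1 of them did not overlap. All 6 skeletal muscle markers were lower as well, with a median of −0.38. Of the 6 adipocyte markers 5 were higher, with a median of 0.83, and all 6 markers of epidermal gamma delta T cells were higher, with a median of 0.38. All of these markers were measured in the libraries of the FGF differences. With median-ratio scaling the medians were 1.64 for the suprabasal, −0.20 for the fibroblast, −0.95 for the endothelial and −0.41 for the monocyte and macrophage markers, and 1 of the 6 endothelial markers was then higher by value. With that scaling all 6 basal keratinocyte markers were higher by value, with a median of 0.28, in place of 4. Of the 4 wound-edge markers 3 were then higher and 1 lower, with a median of 0.06. The part of all these markers in the FGF differences was not tested.

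**Figure D4:**
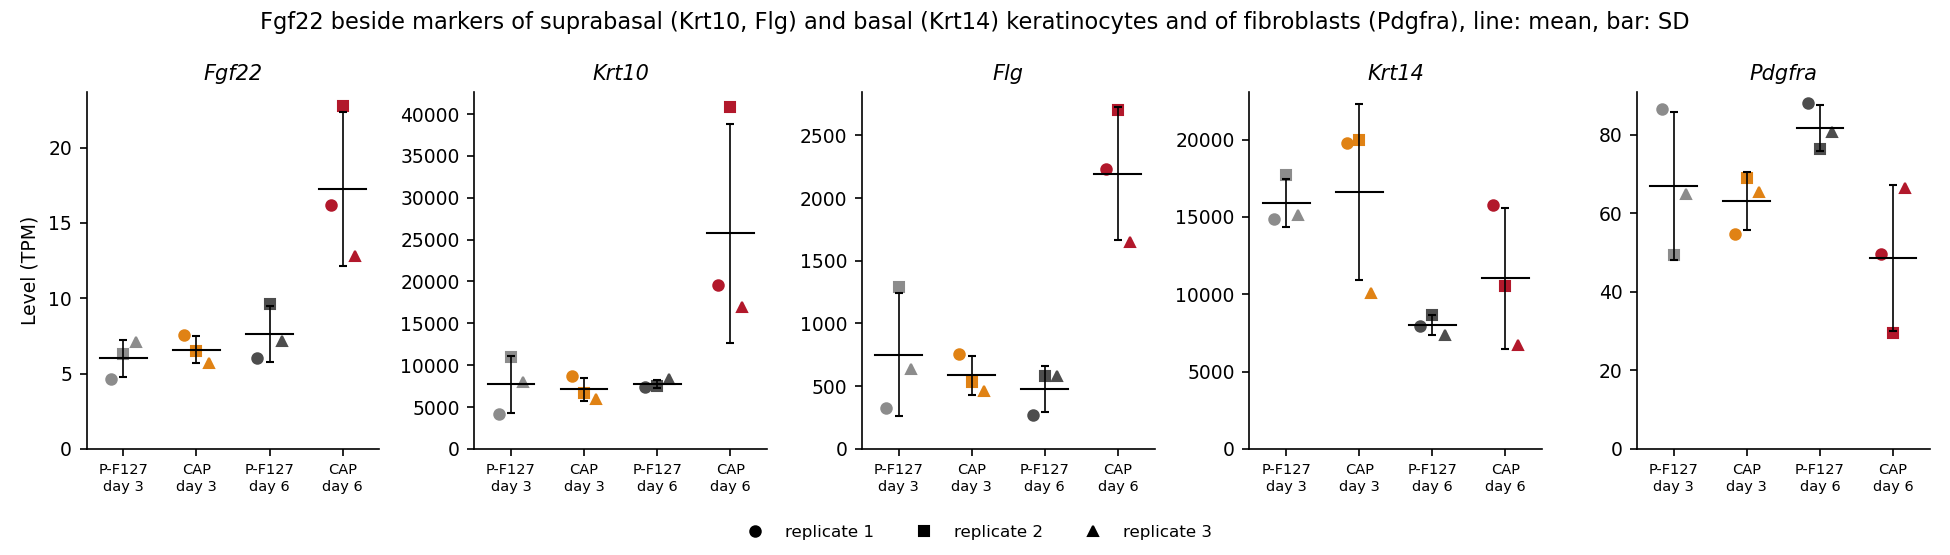
Level in TPM (y axes, from 0, each with its own scale) of Fgf22 and of 4 markers, Krt10 and Flg of suprabasal keratinocytes, Krt14 of basal keratinocytes and Pdgfra of fibroblasts, in the 4 groups (x axis), with 1 point per library and the mean and SD (n = 3). Fgf22 and Krt10 are both highest in CAP day 6 replicate 2, at 22.8 and 40801 TPM. The groups of Krt14 overlap at day 6. Pdgfra was the 1 of 7 fibroblast markers without overlap at that day, and 2 of the 7 were higher with CAP by value.

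The genes most like Fgf22 over the 12 libraries were 2310050C09Rik, Lce1l and Fndc9, in that order. The measure was the root mean square difference of the log2 values after each gene's own mean was taken away, over 17784 genes. It was 0.13, 0.15 and 0.17, beside a root mean square of 0.64 for Fgf22 itself. Lce1l belongs to the late cornified envelope family of the outer epidermis. The likeness was computed for Fgf22 after its values were seen, since no gene of the 10 met the adjusted threshold that the rule asked for.

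At day 3, CAP was compared with the gel alone to ask for an earlier change. None of the 10 genes had groups that did not overlap, where 11.6% of all 18330 genes tested did. An adjusted p under 0.05 was found for 0 of the 10 and for 0.0164% of all genes, and an unadjusted p under 0.05 for 1 of the 10, Fgf2, and for 6.60% of all genes. The threshold of the study was passed by 0 of the 10, against 1.58% of all genes. The median log2 difference was 0.06 over the 10 genes and −0.05 over all genes.

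Fgf2 was at 6.59, 5.14 and 6.51 TPM with P-F127 and at 3.999, 3.28 and 5.46 TPM with CAP. Only the highest CAP library reached into the P-F127 range. The log2 difference was −0.53 (SE 0.22, 95% interval −1.05 to −0.01), with an adjusted p of 0.747 from limma. Fgf18 was at 14.8, 8.44 and 10.7 TPM against 7.33, 4.22 and 9.16 TPM, a log2 difference of −0.74 (SE 0.32, 95% interval −1.51 to 0.03). Its groups overlapped through 1 library on each side. Without CAP day 3 replicate 2 the difference of Fgf18 was −0.42, and that of Fgf2 was −0.36. Fgf1, the third ligand that acts on several receptors, was at 6.04, 9.49 and 7.72 TPM against 8.30, 10.2 and 7.17 TPM. In the same libraries all 7 fibroblast markers were lower by value with CAP, 2 of them without overlap, with a median of −0.48 and a summed level of 15073 to 23305 TPM against 10557 to 15895 TPM. Among all 18330 genes tested, 11395 were lower by value, 1604 of them without overlap. All 6 skeletal muscle markers were lower by value, with a median of −0.60. The part of these markers in the Fgf2 and Fgf18 values was not tested.

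Fgf22 was at 4.65, 6.33 and 7.07 TPM in the P-F127 wounds of day 3 and at 7.53, 6.50 and 5.71 TPM in the CAP wounds, a log2 difference of 0.14 (95% interval −0.33 to 0.61). Fgf7 was at 37.1, 16.5 and 23.8 TPM against 21.8, 23.6 and 18.6 TPM, with the widest spread in the P-F127 wounds. Fgf10 was at 0.231, 0.403 and 0.415 TPM against 0.218, 0.446 and 0.528 TPM. The ligands of the epithelial receptor therefore overlapped between the groups at this day.

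Fgfr1 was at 113.4, 86.8 and 91.8 TPM in the P-F127 wounds of day 3 and at 81.9, 71.0 and 107.4 TPM in the CAP wounds. Fgfr2 was at 47.3, 54.6 and 59.2 TPM against 60.1, 57.3 and 46.2 TPM, and Fgfr3 at 55.2, 65.8 and 65.0 TPM against 77.7, 76.5 and 48.5 TPM. The log2 differences of the receptors ran from −0.18 to 0.10. Fgfbp1 was at 169.7, 173.2 and 186.1 TPM against 230.1, 245.9 and 123.1 TPM. In Fgfr2, Fgfr3 and Fgfbp1, CAP day 3 replicate 3 was the lowest library of its group and the other CAP libraries were higher than it. The summed basal keratinocyte markers of the CAP wounds at day 3 ran from 14735 to 29017 TPM, against 21152 to 26341 TPM in the P-F127 wounds, and their part in these values was not tested.

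The CAP effects of the 2 days share no library, and their difference was tested in 1 fit of all 12 libraries over 17784 genes. It was 1.02 for Fgf22 (SE 0.35, 95% interval 0.26 to 1.78), with an adjusted p of 0.424 from limma. It was 0.96 for Fgf18 (SE 0.40, adjusted p = 0.424 by limma), where the effect was −0.74 at day 3 and 0.22 at day 6, and 0.64 without CAP day 3 replicate 2. It was 0.47 for Fgfr2 (SE 0.21, adjusted p = 0.435). These were the 3 of the 10 genes with an unadjusted p under 0.05, against 11.5% of all genes, and Fgf22 alone passed the threshold of the study, against 4.09%. None of the 10, and 0 of all genes, had an adjusted p under 0.05 by limma. A difference between the days was therefore not shown for any of the 10 genes.

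The course from day 3 to day 6 was compared within each treatment, and these comparisons use the same libraries as those of CAP. In the P-F127 wounds, none of the 10 genes had groups that did not overlap, against 21.4% of all 18368 genes tested. An adjusted p under 0.05 was found for 0 of the 10 and for 2.29% of all genes, and an unadjusted p under 0.05 for Fgf18 alone and for 16.0% of all genes. The threshold of the study was passed by 0 of the 10, against 3.75% of all genes. Fgf18 was lower at day 6 by value, with a log2 difference of −0.65 (SE 0.24, 95% interval −1.21 to −0.09) and an adjusted p of 0.239 from limma. The others ran from −0.35 for Fgfbp1 to 0.33 for Fgf22.

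In the CAP wounds, Fgf22 and Fgfr2 were higher at day 6 than at day 3 without overlap, 2 of the 10 genes, where 17.7% of all 18202 genes did not overlap and 8.05% did so upward. The log2 difference of Fgf22 was 1.35 (SE 0.23, 95% interval 0.79 to 1.90), or 2.54-fold, with an adjusted p of 0.259 from limma. That of Fgfr2 was 0.35 (SE 0.14, adjusted p = 0.426 by limma), and 0.23 without CAP day 3 replicate 3. The gap of Fgfr2 was narrow, with CAP day 6 replicate 2 at 60.43 TPM and CAP day 3 replicate 1 at 60.08 TPM. Of the 10 genes 0, and 0.00549% of all genes, had an adjusted p under 0.05, and these 2 genes had an unadjusted p under 0.05, against 11.6% of all genes. Fgf22 alone passed the threshold of the study, as did 2.79% of all genes. The summed suprabasal markers went from between 13725 and 22954 TPM at day 3 to between 38120 and 88364 TPM at day 6 in the same libraries.

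The feedback inhibitors and target genes of FGF receptors were described as a list of 13 genes. At day 6, 11 of the 13 were lower and 2 higher by value in the CAP wounds, with a median log2 difference of −0.46, beside −0.12 over all genes, of which 12044 of 18323 were lower by value. With median-ratio scaling 11 were still lower by value and the median was −0.35. Groups did not overlap in 5 of the 13, all lower, against 18.0% of all genes. None had an adjusted p under 0.05 by limma, and 5 had an unadjusted p under 0.05. Dusp6, a phosphatase that turns off ERK, was at 91.6, 87.2 and 66.7 TPM with P-F127 and at 52.7, 30.9 and 61.8 TPM with CAP. All CAP libraries were lower, the closest by a small margin. Its log2 difference was −0.80 (SE 0.26), with an adjusted p of 0.222 from limma.

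Etv5, a transcription factor induced by FGF signals, was at 14.9, 12.6 and 11.8 TPM in the P-F127 wounds of day 6 and at 10.7, 8.25 and 6.99 TPM in the CAP wounds. These did not overlap, at a log2 difference of −0.61 (SE 0.19, adjusted p = 0.215 by limma). Etv4 was at 18.6, 24.0 and 14.0 TPM against 13.1, 16.4 and 11.2 TPM and overlapped. Of the Sprouty inhibitors of Ras signalling, Spry1 was at 29.8 ± 4.16 against 32.5 ± 3.83 TPM (SD, n = 3), Spry2 at 20.7 ± 4.69 against 16.1 ± 1.26 TPM, and Spry4 at 4.53 ± 1.45 against 2.65 ± 1.48 TPM, and all 3 overlapped. Dusp4, chosen after its values were seen, was the 1 gene of the list past the threshold of the study, at 4.94, 3.999 and 3.38 TPM against 1.49, 1.21 and 2.66 TPM, a log2 difference of −1.21 (SE 0.32, adjusted p = 0.208 by limma). The 2 other genes of the list without overlap were Spred1 at −0.65 and Spred3 at −0.63. The endothelial, neutrophil, and monocyte and macrophage markers that were tested were all lower by value in the same libraries as deposited, as were 5 of the 7 fibroblast markers, and their part in the list was not tested.

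**Figure D5:**
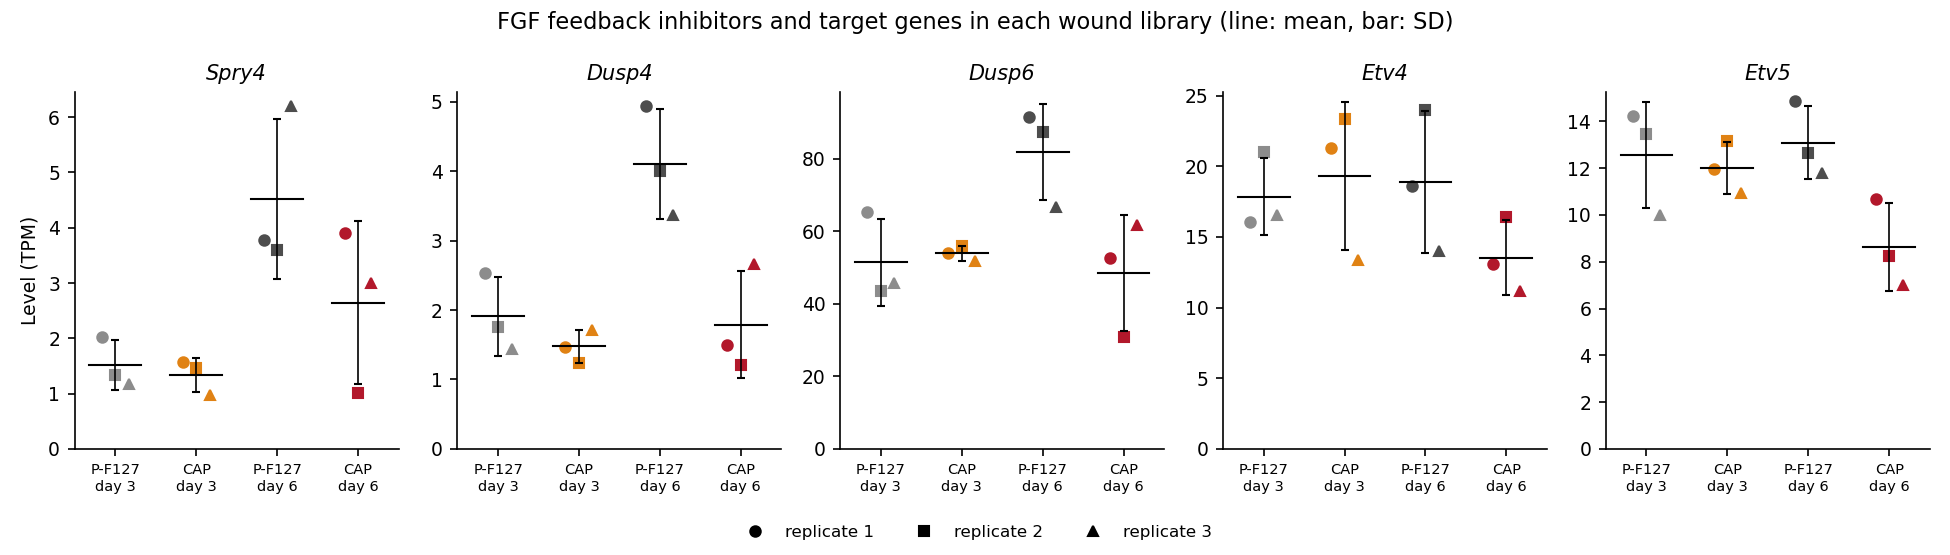
Level in TPM (y axes, from 0) of 5 feedback inhibitors and targets of FGF receptors in the 4 groups (x axis), with 1 point per library, the mean and the SD (n = 3). Dusp4, Dusp6 and Etv5 of the CAP wounds at day 6 lie below the P-F127 wounds of that day, while the groups of Spry4 and Etv4 overlap.

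At day 3, 11 of the 13 were lower by value, with a median of −0.13, and none of the groups was without overlap. Of all 18330 genes tested, 11395 were lower by value, with a median of −0.05. From day 3 to day 6 in the P-F127 wounds, 4 of the 13 were higher without overlap, against 10.8% of all genes, among them Spry4 with a log2 difference of 1.51 (SE 0.30, adjusted p = 0.0521 by limma) and Dusp6 with 0.68 (SE 0.19, adjusted p = 0.129). In the same libraries 4 of the 6 endothelial markers rose, Pecam1, Cdh5, Kdr and Emcn, by limma's adjusted p. Among all 18368 genes tested, 210 rose and 9313 were higher by value. All 6 endothelial markers were higher by value, with a median of 1.25. Their summed level was 90.5 to 119.2 TPM at day 3 against 233.0 to 320.0 TPM at day 6. Their part in the course of the feedback genes was not tested. In the CAP wounds the same differences were 0.77 (SE 0.50) for Spry4 and −0.21 (SE 0.25) for Dusp6. The difference of the CAP effects between the days was −0.89 for Dusp6 (SE 0.34, adjusted p = 0.424 by limma). It was −0.74 for Spry4 (SE 0.62).

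Among the other receptors, Fgfr4 fell from day 3 to day 6 in the P-F127 wounds. It was at 2.83, 3.61 and 2.14 TPM at day 3 and at 0.780, 0.756 and 0.957 TPM at day 6. The log2 difference was −1.65 (SE 0.26, adjusted p = 0.0315 by limma), and the adjusted p was above 0.05, at 0.0597 to 0.110, when any 1 library was left out. With the replicate number as a block it was 0.0671. In the CAP wounds Fgfr4 was at 2.85, 1.31 and 0.960 TPM at day 3 and at 0.230, 0.387 and 0.645 TPM at day 6, a log2 difference of −1.73 (SE 0.50, adjusted p = 0.334 by limma). The difference of the CAP effects between the days was −0.09 (SE 0.57). FGFR4 is known from muscle precursor cells, and the 6 skeletal muscle markers summed to 3546 to 5085 TPM at day 3 and 2150 to 3246 TPM at day 6 in the P-F127 wounds. Their part in the Fgfr4 difference was not tested.

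The coreceptor Kl, which endocrine FGFs need, stayed under 0.3 TPM in all 12 libraries, and Klb reached that level in 7. Of the 12 other secreted FGF ligands, 3 passed the filter at each day, namely Fgf9, Fgf16 and Fgf23. None of them rose or fell by the adjusted p in any comparison. Fgf9, a ligand known from mesenchymal signalling, was at 1.19, 1.14 and 0.898 TPM in the P-F127 wounds of day 6 and at 0.624, 0.353 and 0.648 TPM in the CAP wounds, without overlap, at a log2 difference of −0.90 (SE 0.34, adjusted p = 0.236 by limma). At day 3 it was also lower without overlap, at 0.741, 0.716 and 0.624 TPM against 0.472, 0.493 and 0.197 TPM. Fgf16 was lower without overlap at day 3 too, at 1.305, 0.671 and 0.987 TPM against 0.458, 0.314 and 0.564 TPM. At day 6 the groups of Fgf16 overlapped. These levels are near the filter, where the fold is understated.

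Heparan sulfate, the sugar chain that FGFs need to bind their receptors, was described by 12 core proteins and 16 enzymes. In the P-F127 wounds Hpse, the heparanase that cuts these chains, rose from day 3 to day 6. It was at 71.3, 52.3 and 65.6 TPM at day 3 and at 119.0, 104.1 and 135.3 TPM at day 6. The log2 difference was 0.92 (SE 0.14, adjusted p = 0.0297 by limma), and it kept an adjusted p under 0.05 in 2 of the 6 fits with 1 library left out, with log2 differences of 0.80 to 1.02. The endothelial markers were higher in the same libraries, as given above, and their part in the Hpse difference was not tested. In the CAP wounds Hpse was at 83.2 ± 29.0 TPM at day 3 and 92.8 ± 33.6 TPM at day 6 (SD, n = 3), a log2 difference of 0.15 (SE 0.33). The difference of the CAP effects between the days was −0.77 (SE 0.39, adjusted p = 0.457 by limma), so the courses were not shown to differ. No other gene of either list rose or fell in any comparison. At day 6, 14 of the 16 enzymes were lower by value with CAP, 7 of them without overlap. Of all genes tested, 18.0% were lower without overlap and 12044 of 18323 lower by value. Of the 11 core proteins tested, 9 were lower, 2 of them without overlap. With median-ratio scaling, 11 of the enzymes and 6 of the core proteins were lower by value.

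Of the 17 genes that carry the signal from the receptor, all were tested, and none rose or fell in any comparison. Their median log2 difference between CAP and P-F127 wounds was −0.06 at day 3 and −0.02 at day 6. At day 6 the single genes ran from −0.64 to 0.37, with 3 higher and 4 lower without overlap. Of all genes tested at that day, 8.01% were higher and 18.0% lower without overlap. For the difference of the CAP effects, 1 higher and 4 lower genes had an unadjusted p under 0.05, against 11.5% of all genes. Summed over the list, the level was 1138 to 1167 TPM in the P-F127 wounds and 1128 to 1159 TPM in the CAP wounds of day 6.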

How the data were processed

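Total RNA of mouse wounds was sequenced in paired-end mode after library preparation with a SureSelect XT HS2 mRNA kit. The authors used bcl2fastq 2.20, Trimmomatic 0.36 and StringTie 2.1.4 on the mm10 build. The aligner, annotation release and strand setting are not stated in the paper or labels. They deposited TPM per gene for each of 12 libraries, with 0.0001 in place of 0. TPM carries no depth.

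Values were taken to log2(TPM + 0.1). Genes whose mean reached 0.3 TPM in each group compared (all 4 groups for the difference of the CAP effects) were fitted with limma 3.58.1 (R 4.3.3, trend, not robust), with Benjamini-Hochberg adjustment over every gene tested. The fit was tested on simulated data. Python 3.11.15 with pandas 2.3.3 and matplotlib 3.10.9 did the rest. Alternatives were median-ratio scaling, pseudocounts of 1 and 0.01 TPM, no filter, a filter of 1 TPM, a replicate block, a joint fit of 12 libraries, and leaving out each library.

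The 10 genes, the gene lists and the markers were chosen with earlier results of these data known. Named genes are the 10 genes, then Spry1, Spry2, Spry4, Dusp6, Etv4, Etv5, Fgfr4, Kl and Klb whatever their result, and of the other lists at most the 3 called genes with the smallest p. Fgf9, Fgf16 and Fgf23 are named because they passed the filter. Dusp4, Spred1, Spred3, Pdgfra, Lum, Dpt and the keratinocyte markers were named after their values were seen. The 4 endothelial markers that rose were all named, beyond the limit of 3.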

Additional observations from a re-analysis of the deposited data

How the results depend on the processing

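With the replicate number as a block, no call of the 10 FGF genes changed, and Fgf22 at day 6 had an adjusted p of 0.115 by limma. The numbers were not taken to pair the libraries, since the correlations of same-numbered libraries ran from −0.139 to 0.256. At day 6, each CAP library correlated best with the P-F127 library of its own number in 3 of 3, which is a hint from the data only. The block left 0 genes called for CAP at day 3 and 2 from day 3 to day 6 in the CAP wounds.

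Over all alternatives, Fgf22 at day 6 stayed higher in the CAP wounds, by 0.94 to 1.35 on the log2 scale with adjusted p from 0.0371 to 0.470 by limma. Fgfr2, Fgfr3, Fgf7 and Fgfr1 also kept their direction there. With 1 library left out, the FGF genes called at day 6 numbered 0 to 1 and those past the threshold of the study 0 to 1. For the difference of the CAP effects, those past the threshold numbered 2 with median-ratio scaling, 0 with a pseudocount of 1 TPM and 0 to 2 with 1 library left out.

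Fgfr4 and Hpse in the P-F127 wounds over time lost their calls without the filter, at adjusted p of 0.0766 and 0.0621 by limma, and in the joint fit, at 0.172 and 0.223. Counts over all genes moved more. For CAP at day 3, 5 genes were called with median-ratio scaling and with a pseudocount of 1 TPM, and 0 without the filter or in the joint fit. In the P-F127 wounds over time, 420 became 194 without the filter and 0 in the joint fit. In the CAP wounds over time, 1 became 2 without the filter, 0 with a filter of 1 TPM and 10 in the joint fit. For the difference of the CAP effects, 5 were called without the filter. With 1 library left out, the counts ran from 0 to 48 for CAP at day 3 (48 without CAP day 3 replicate 1), 0 to 1430 at day 6 (1430 without CAP day 6 replicate 3), 1 to 498 in the P-F127 wounds over time (1 without P-F127 day 3 replicate 3) and 0 to 3 in the CAP wounds. The cause was not tested.

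Signs turned only where no call was made. With median-ratio scaling, Fgfr1 over time in the CAP wounds was 0.01 and Fgf1 in the difference of the CAP effects 0.04. With a pseudocount of 1 TPM, Fgfr4 in the latter was 0.18. With 1 library left out, the log2 differences at day 3 ran from −0.48 to 0.10 for Fgf7, −0.09 to 0.41 for Fgf10, −0.03 to 0.26 for Fgf22, −0.01 to 0.31 for Fgf1, −0.07 to 0.13 for Fgfr2, −0.02 to 0.32 for Fgfr3 and −0.07 to 0.43 for Fgfbp1. At day 6 they ran from −0.11 to 0.73 for Fgf10, −0.11 to 0.18 for Fgf2 and −0.05 to 0.34 for Fgfbp1. Over time in the P-F127 wounds they ran from −0.11 to 0.47 for Fgf7, −0.14 to 0.70 for Fgf10 and −0.20 to 0.03 for Fgfr3. In the CAP wounds they ran from −0.12 to 0.41 for Hpse, −0.01 to 0.54 for Fgf18 and −0.16 to 0.13 for Fgfr1. For the difference of the CAP effects they ran from −0.17 to 0.16 for Fgf1, −0.28 to 0.22 for Fgfbp1, −0.40 to 0.34 for Fgfr4 and −0.23 to 0.62 for Fgf10.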

Other observations

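Fgf23, known as a hormone of bone that acts on the kidney, was listed unevenly across the wounds. At day 3 it was at 5.47, 0.292 and 0.377 TPM in the P-F127 libraries and at 0.344, 4.30 and 0.415 TPM in the CAP libraries, so 1 library of each group was high. At day 6 it was at 5.52, 6.76 and 4.30 TPM in the P-F127 libraries and at 2.83, 0.227 and 1.302 TPM in the CAP libraries. These last groups did not overlap, and the log2 difference was −2.33 (SE 0.74, adjusted p = 0.217 by limma).

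Hs6st2, an enzyme that adds sulfate to heparan sulfate, was the 1 enzyme of that list past the threshold of the study at day 6, and it was chosen after its values were seen. It was at 5.46 ± 1.35 TPM in the P-F127 wounds and 2.33 ± 1.17 TPM in the CAP wounds (SD, n = 3), a log2 difference of −1.27 (SE 0.36, adjusted p = 0.209 by limma). At day 3 it was also lower without overlap, with a log2 difference of −0.85 (SE 0.29, adjusted p = 0.692 by limma).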
